A study of Mus musculus with 29 samples.

Results

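The genes described here encode the receptors that natural killer (NK) cells use to recognise other cells and the proteins of the granules with which they kill. The set held every gene on the array whose name begins with Klra, Klrb, Klrc, Klrd, Klre, Klrg, Klri, Klrk or Gzm, together with Ncr1 and Prf1. This gave 44 of the 27670 gene names on the array: 19 Klra genes, 4 Klrb genes, 9 other Klr genes, Ncr1, 10 granzymes and perforin (Prf1). A total of 57 probes carried them, and for the 12 genes with several probes the brightest probe stood for the gene. No probe was found by these names for Clec12b, Klri1 or Klra4.

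Uterine RNA of female CD-1 mice, an outbred stock, was labelled with Cy3 and hybridised to 29 single-channel Agilent arrays. During postnatal days 1 to 5 the animals had received either corn oil (CON) or genistein (GEN), a soy isoflavone with oestrogenic activity, the daily dose being 50 mg/kg. The uteri came from 4 gestation days (GD): GD1.5 had 3 CON arrays and 4 GEN arrays, GD3.5 had 3 of each, and GD4.5 and GD5.5 had 4 of each. The GEN arrays of GD3.5 carry the replicate numbers 1, 3 and 4. The labels give no age at mating. They do not tie each array to an animal or a litter of its own, so arrays of 1 exposure may share a litter. The p-values here reflect only the spread between samples, which may be technical. In whole uterus, fewer NK cells and less RNA per cell cannot be told apart.

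NK cells are the most abundant lymphocytes of the early pregnant uterus. Their activating and inhibitory receptors, read together, decide whether a target cell is spared: the Klra (Ly49) family binds classical MHC class I molecules, Klrd1 pairs with the Klrc (NKG2) proteins to read non-classical MHC class I, Klrk1 (NKG2D) reads stress ligands, and Ncr1 (NKp46) is a defining marker of the lineage. The Klra genes lie in a cluster whose gene content differs between mouse strains. Perforin opens the target membrane to granzymes, which are serine proteases: Gzma and Gzmb are shared with cytotoxic T cells, while Gzmc, Gzmd, Gzme, Gzmf and Gzmg, which neighbour Gzmb, are known from the granulated NK cells of the decidua.

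The probes that carry the main results are printed here, because a 60-base probe decides which family members a value can stand for. They are written 5′ to 3′ in lower case as the array design gives them, and only the first 30 bases are shown for Klra5 and Klri2.
Gzma: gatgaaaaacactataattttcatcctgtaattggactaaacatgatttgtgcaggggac
Gzmc: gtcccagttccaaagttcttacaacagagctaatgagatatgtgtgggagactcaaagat
Gzmd: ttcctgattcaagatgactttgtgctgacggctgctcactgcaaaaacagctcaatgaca
Gzme: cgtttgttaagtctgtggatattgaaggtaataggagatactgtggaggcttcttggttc
Gzmf: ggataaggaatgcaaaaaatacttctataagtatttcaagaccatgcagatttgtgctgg
Gzmg: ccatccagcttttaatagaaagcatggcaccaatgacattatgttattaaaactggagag
Prf1: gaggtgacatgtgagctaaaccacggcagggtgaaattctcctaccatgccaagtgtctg
Klra6: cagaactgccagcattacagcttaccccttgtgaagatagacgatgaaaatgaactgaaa
Klra5: ggactgttctctggtatctattttgacaga
Klri2: gtccagtaactgtacaaaactcttaaggta

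The design file places 42 members on mouse build mm7 (NCBI35). Of these, 29 lay on chromosome 6, which holds the NK receptor genes, and 7 granzymes lay together on chromosome 14. The Gzmf probe lies at chr14:51073301-51073360 and the Gzmc probe at chr14:51099611-51099670, both on the minus strand. The Klra6 probe spans chr6:130043353-130045499 and the Klra5 probe chr6:129925721-129925780, again on the minus strand. The design lists other Klra genes for 8 Klra probes, so these values cannot be given to 1 gene with certainty. The Klra6 probe also lists Klra5 and Klra19, and the Klra3 probe lists Klra6, Klra9 and Klra10. The Klra5 probe and the granzyme probes list no other gene. The probes of Klra12 and Klra23 share 36 of 40 overlapping bases, and the Klrc3 probe lists Klrc1 and Klrc2.

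RefSeq's promoter table (build GRCm38.p6) held 31 of the 44 members, and the 250 bases before the start were searched on both strands for 7 short motifs. The motif TGTGGTT, known as a Runx site, was present in 4.4% of 32851 promoters. It was present in 7 of 10 granzyme promoters, those of Gzma, Gzmb, Gzmc, Gzmd, Gzme, Gzmf and Gzmg, and in 3 of 21 other members, Klre1, Klrk1 and Ncr1. The cyclic AMP response motif TGACGTCA was present in 1.55% of all promoters and in those of Gzmc, Gzmf and Gzmg. Of the other motifs, TGANTCA (6.75% of promoters) was in Gzmb, CACGTG (6.02%) in Klrc2 and Klrc3, GATAAG (6.55%) in Klrc1, and TTCNNNGAA (7.02%) in Gzmm, Klra10, Klra2 and Klra7. The motif AGGTGTGA (1.12%) was in 0 of the 31. These are matches of letters only. The granzyme promoters are not independent: those of Gzmc to Gzmg were 71.5 to 94.8% identical in pairs, and Gzmb or Gzmn shared 47.3 to 54.5% with the others. The 4 promoters printed here belong to granzymes whose RNA changed between days. Each is on the minus strand and is written in the direction of its gene, with capitals marking TGACGTCA and TGTGGTT, the latter as AACCACA where it lies on the opposite strand.
Gzma, chr13:113100982-113101231: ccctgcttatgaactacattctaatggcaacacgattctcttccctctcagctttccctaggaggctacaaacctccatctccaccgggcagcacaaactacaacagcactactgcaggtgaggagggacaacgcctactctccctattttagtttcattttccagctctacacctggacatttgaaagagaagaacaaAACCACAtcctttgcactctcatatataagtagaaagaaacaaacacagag
Gzmc, chr14:56234658-56234907: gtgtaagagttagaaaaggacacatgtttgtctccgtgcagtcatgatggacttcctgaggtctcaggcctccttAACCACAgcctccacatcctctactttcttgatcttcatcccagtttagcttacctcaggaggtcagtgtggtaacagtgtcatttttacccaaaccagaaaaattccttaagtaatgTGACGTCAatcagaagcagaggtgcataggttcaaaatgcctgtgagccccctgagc
Gzmd, chr14:56132594-56132843: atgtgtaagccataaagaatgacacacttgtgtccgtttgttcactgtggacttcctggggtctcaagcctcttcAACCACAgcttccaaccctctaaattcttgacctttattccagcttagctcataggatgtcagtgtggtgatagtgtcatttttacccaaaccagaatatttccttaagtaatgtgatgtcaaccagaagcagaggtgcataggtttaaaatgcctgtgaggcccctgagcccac
Gzmf, chr14:56211408-56211657: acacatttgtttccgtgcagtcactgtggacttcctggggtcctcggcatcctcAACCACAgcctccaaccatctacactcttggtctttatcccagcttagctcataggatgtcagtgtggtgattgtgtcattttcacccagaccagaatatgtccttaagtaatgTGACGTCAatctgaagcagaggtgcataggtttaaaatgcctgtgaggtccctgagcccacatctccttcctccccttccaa

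Levels below are log2 intensities from which the 75th percentile of that array was subtracted, so 0 is the 75th percentile. A gene entered a test when, among the arrays compared, 3 or more showed its probe well above background. In each comparison 41 of the 44 members passed, and 25 members were well above background on all 29 arrays. Klra19 and Klrc2 were not well above background on any array and Gzmn on 2 arrays, so these 3 genes have no fold. Among the members that give the set its label, Ncr1, Klrb1c (NK1.1), Klrd1, Prf1 and Gzma to Gzmd were well above background on all 29 arrays. Klrk1 was so on 22 arrays, Gzmg on 23, Gzmk on 24 and Klrc3 on 25. These genes belong to the set, so their detection is no independent check of the label. T cell markers were measured too: of 13 genes, at least 11 were well above background on every array of each group. Cd3e and Cd4 were so on all 29 arrays, Cd8a on 22 and Cd28 on 12. The granule genes and the receptors that T cells share are therefore not assigned to NK cells alone. Arrays of 1 group correlated at 0.959 to 0.995. The arrays of GD1.5 and GD3.5 lay on slides 1 to 3, apart from GD3.5 CON replicate 3, which lay alone on slide 4. Those of GD4.5 and GD5.5 lay on slides 5 to 8. Slide and day cannot be told apart between GD3.5 and GD4.5, and this step was not tested.

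**Figure D1:**
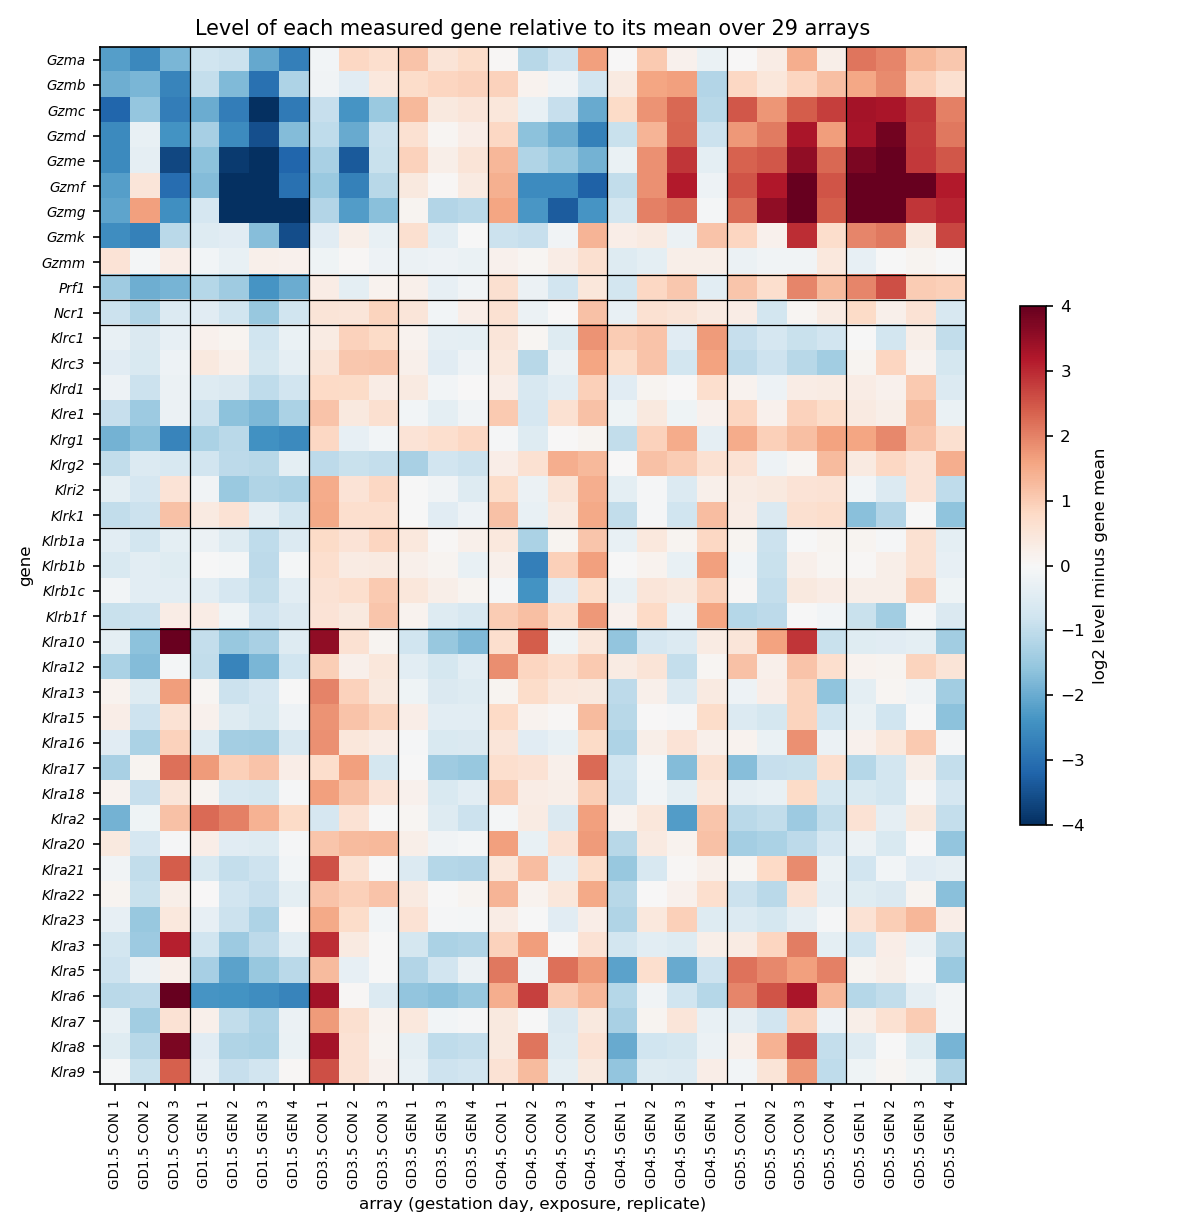
Log2 level of each of the 41 tested genes (rows, grouped by family) on each of the 29 arrays (columns, ordered by gestation day, exposure and replicate), minus the mean of that gene over all arrays. Red is above and blue below the gene's mean. Gzmc to Gzmg are highest on the GD5.5 arrays, and most Klra genes are highest on single CON arrays such as GD1.5 CON 3 and GD3.5 CON 1.

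Between GD4.5 and GD5.5, when the decidua forms, 5 of 9 tested granzymes rose in CON and 4 in GEN, and perforin rose in both. In CON uteri 5 granzymes rose, Gzmc by 8.32-fold, Gzmd by 11.8-fold, Gzme by 11.1-fold, Gzmf by 28.4-fold and Gzmg by 29-fold, and perforin rose 2.34-fold. In GEN uteri Gzma, Gzmc, Gzmd and Gzmf rose by 2.61 to 8.55-fold and perforin rose 2.7-fold. Among receptors Klrg1 rose in CON, while Klra20, Klra22, Klrb1f, Klrc1 and Klrc3 fell. The CON count was 7 members higher and 5 lower of 41, against 16.3% higher and 14.3% lower among 21677 genes tested. In GEN 5 members were higher and 2 lower, against 12.7% and 8.96% of 20938 genes. As shares of the 41 members, these counts were close to or below those of all genes. Arrays of the 2 days did not overlap for 7 members higher and 4 lower in CON, against 14.2% and 13% of all genes, and for 3 higher and 0 lower in GEN, against 8.27% and 6.04%. The median over the members was -0.13 in CON and 0.11 in GEN, beside 0.02 and 0.09 over all genes. All tests are limma's moderated test with Benjamini-Hochberg adjustment over all genes tested.

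Gzmc, a decidual granzyme, stood at 1.54, 0.77, 0.16 and -0.93 in the 4 CON arrays of GD4.5 and at 3.55, 2.85, 3.49 and 3.85 in those of GD5.5. In GEN it stood at 1.85, 2.89, 3.37 and -0.02 at GD4.5, then at 4.42, 4.36, 3.94 and 3.08 at GD5.5. The CON days did not overlap, whereas GEN replicate 3 of GD4.5 lay above GEN replicate 4 of GD5.5. The rise passed the test in CON (log2 difference 3.06, SE 0.62, adjusted p = 0.00083) and in GEN (log2 difference 1.93, SE 0.62, adjusted p = 0.0306).

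Gzmf, its neighbour on chromosome 14, moved over a wider range. In the CON arrays it read -1.16, -5.08, -5.09 and -5.80 at GD4.5, then -0.07, 0.61, 1.68 and -0.05 at GD5.5 (log2 difference 4.83, SE 1.05, adjusted p = 0.00149). In the GEN arrays it read -3.58, -0.74, 0.59 and -2.77 at GD4.5, then 1.58, 2.15, 1.55 and 0.61 at GD5.5 (log2 difference 3.10, SE 1.05, adjusted p = 0.039). Neither exposure's days overlapped. CON replicate 1 of GD4.5 was far above the other 3 CON arrays of that day, and without it the difference in CON was 5.87.

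Gzmd, whose 2 probes gave similar changes (3.57 and 3.95 in CON, 2.53 and 2.56 in GEN), rose in CON (log2 difference 3.57, SE 0.74, adjusted p = 0.00103) and in GEN (log2 difference 2.53, SE 0.74, adjusted p = 0.0194). Its levels in the CON arrays were 0.44, -2.04, -2.35 and -3.10 at GD4.5, then 1.34, 1.70, 2.88 and 1.29 at GD5.5. The GEN arrays gave -1.29, 0.98, 1.93 and -1.26 at GD4.5, then 2.91, 3.46, 2.41 and 1.72 at GD5.5. Here too CON replicate 1 of GD4.5 was the highest of its group, without reaching the GD5.5 arrays.

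Gzmg was well above background on only 1 of 4 CON arrays at GD4.5, so its fold depends on near-background values. It read -2.60, -6.51, -7.53 and -6.54 in CON at GD4.5, then -1.97, -0.65, 0.63 and -1.77 at GD5.5 (log2 difference 4.86, SE 1.10, adjusted p = 0.00192). Its GEN arrays gave -4.91, -2.18, -1.99 and -4.27 at GD4.5, then 0.17, 1.08, -1.33 and -1.15 at GD5.5, a difference of 3.03 that missed the threshold (adjusted p = 0.0506). All 4 arrays of GD5.5 lay above all 4 of GD4.5 in both exposures.

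Gzme rose in CON (log2 difference 3.48, SE 0.89, adjusted p = 0.00508), from -2.38, -4.93, -5.19 and -5.59 at GD4.5 to -1.36, -1.25, -0.16 and -1.41 at GD5.5. In GEN it gave -3.98, -1.88, -0.85 and -4.10 at GD4.5, then 0.04, 0.67, -0.90 and -1.23 at GD5.5, a difference of 2.35 with an adjusted p of 0.0613. The GEN days overlapped through replicate 3 of GD4.5.

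Perforin, which opens the way for granzymes, rose with a smaller step in both exposures. Its CON arrays read 0.49, -0.40, -0.93 and 0.31 at GD4.5, then 0.96, 0.52, 1.79 and 1.12 at GD5.5 (log2 difference 1.23, SE 0.42, adjusted p = 0.0283). Its GEN arrays read -0.88, 0.68, 0.93 and -0.58 at GD4.5, then 1.80, 2.42, 0.87 and 0.79 at GD5.5 (log2 difference 1.43, SE 0.42, adjusted p = 0.0186). The CON days did not overlap, and the GEN days did, through replicate 3 of GD4.5.

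Gzma, a tryptase shared with T cells, passed the test in GEN only at the margin (log2 difference 1.39, SE 0.50, adjusted p = 0.0494). It read 0.06, 1.10, 0.22 and -0.21 at GD4.5, then 2.19, 2.01, 1.36 and 1.14 at GD5.5 in GEN, without overlap. In CON it read 0.09, -1.05, -0.77 and 1.69 at GD4.5, then 0.08, 0.33, 1.51 and 0.28 at GD5.5, and CON replicate 4 of GD4.5 was above all CON arrays of the later day (difference 0.56, adjusted p = 0.451). The call in GEN was lost in 20 of the 29 fits that left out 1 array, where the difference was 1.21 to 1.56.

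Whether a rise was larger in 1 exposure than in the other was tested as the difference of the exposure effect between GD5.5 and GD4.5. It was called for 0 of 41 members (percent called among 22549 genes 0.00443), with 1 member at an unadjusted p under 0.05. For Gzmf the difference was -1.73 with a 95% interval of -4.81 to 1.35, and for Gzmc -1.13 (-2.95 to 0.69). For Gzmg it was -1.83 (-5.03 to 1.38). These intervals are too wide to show that the exposures rose alike.

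The GEN result is less firm than the CON result. Leaving out 1 array gave 9 to 13 called members in CON. In GEN it gave 2 without GD4.5 GEN replicate 1, 4 without GD5.5 GEN replicate 4, and 0 without any one of GD4.5 GEN replicate 4, GD5.5 GEN replicate 1 or GD5.5 GEN replicate 2. Within the 4 slides that held both days in CON, Gzmc differed by 1.95 to 4.79, Gzmf by 2.84 to 5.75 and Prf1 by 0.80 to 1.46. Only 2 slides held both days in GEN, where Gzmc differed by -0.29 to 1.47, Gzmd by -0.21 to 2.48, Gzmf by 0.02 to 2.88 and Prf1 by -0.14 to 1.74, so the direction was not the same on both slides for Gzmc, Gzmd and Prf1. With slide as a fixed block, 0 members were called in GEN and 11 in CON.

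Other tissue components moved in the same interval. All 7 decidual stroma markers rose in CON and 6 of 7 in GEN, led by Prl8a2 (log2 difference 9.0, SE 1.04, adjusted p = 2.47e-06 in CON). Of 12 tested T cell markers 1 was higher in each exposure, Cd8b1 (log2 difference 0.53, SE 0.14, adjusted p = 0.00492 in CON). The list went mostly the other way: 10 of the 12 T cell markers in CON and 8 of 12 in GEN had a difference below 0, with medians of -0.65 and -0.62. The summed level of the 13 T cell markers was taken as a multiple of the array's 75th percentile. It ranged from 33.0 to 51.0 in CON at GD4.5 and from 33.0 to 73.0 at GD5.5. In GEN it ranged from 34.0 to 70.0 and from 57.5 to 78.5. Thy1 dominated this sum: its log2 level was 3.68 to 6.23 over the 29 arrays, while no other of the 13 exceeded 1.21 (Lck). The sum therefore does not describe the T cell list as a whole. Of 5 general leukocyte markers 2 fell in CON, Cd53 and Laptm5. Of 7 mast cell markers 3 fell in CON (Cma1, Cpa3 and Mcpt4; list median -1.28), and 0 of 6 passed in GEN. Of 7 neutrophil markers 2 fell in CON (Mpo and Retnlg; list median -0.69), and 0 of 7 passed in GEN. Of 6 trophoblast and embryo markers 3 rose and 1 fell in CON (list median 1.62), and 2 rose in GEN (list median 0.86). Gata3 and Prl3d1 were among those that rose in both. The part of these cell types in the granzyme result was not tested.

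**Figure D2:**
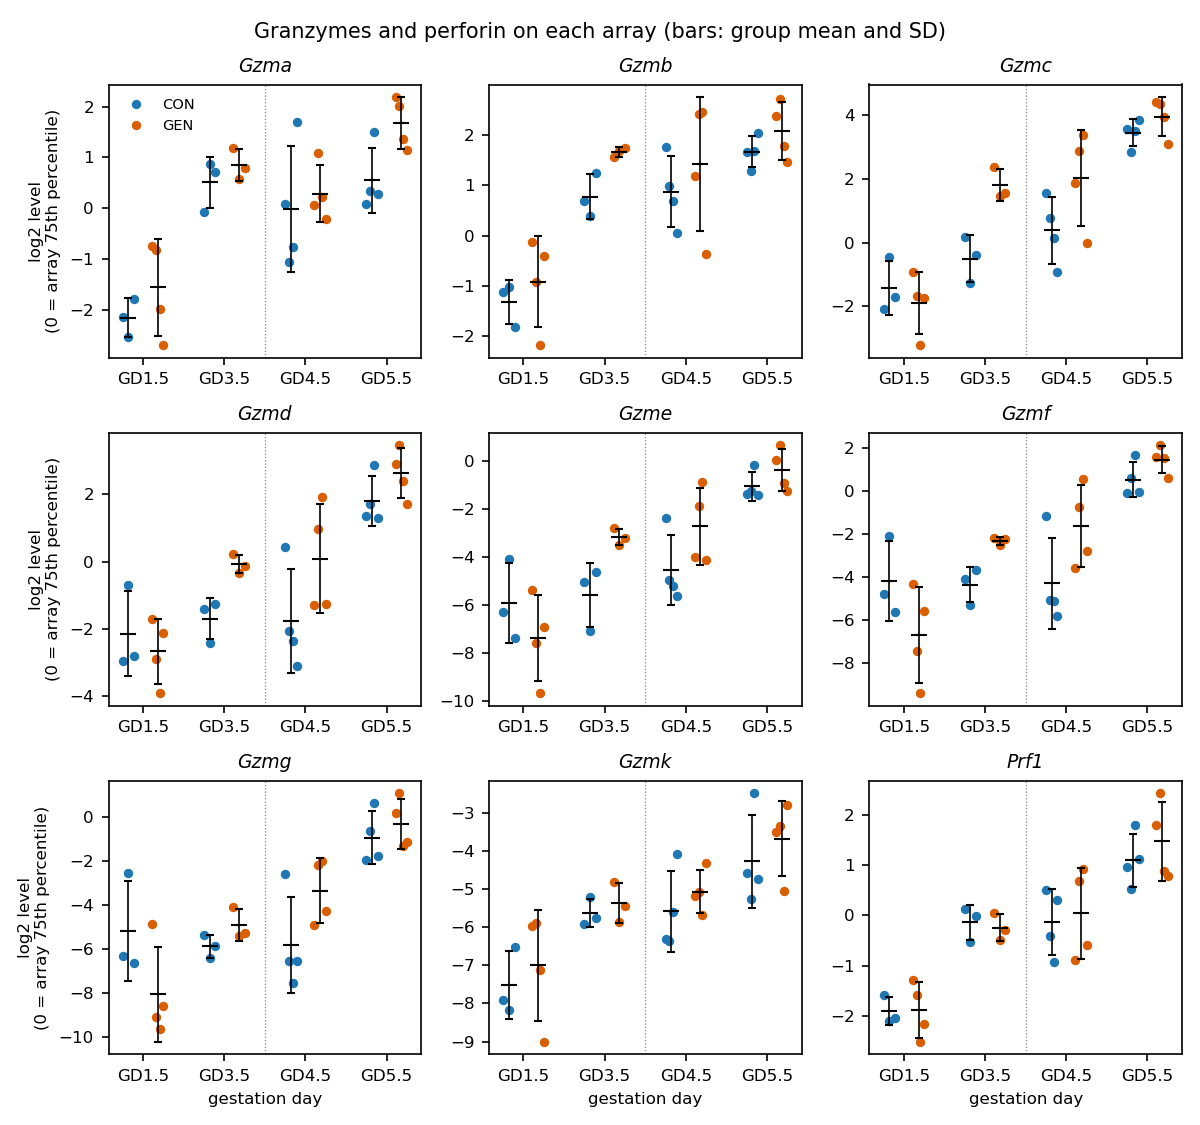
Log2 level of 8 granzymes and Prf1 on each array by gestation day, with points for single arrays in CON and GEN and bars for the group mean and SD (3 or 4 arrays). The dotted line separates days measured on different slides. Gzmc to Gzmg sit highest at GD5.5 in both exposures, and CON replicate 1 of GD4.5 stands above its group in Gzmd, Gzme, Gzmf and Gzmg.

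From GD1.5 to GD3.5 the difference was above 0 for 37 of 41 members in CON and for 28 in GEN. In CON uteri Gzma rose 6.31-fold, the inhibitory receptor Klrg1 4.6-fold, Klre1 3.03-fold and the lineage marker Ncr1 2.8-fold. In GEN uteri Gzmf rose 20.6-fold, Gzme 18.6-fold, Gzmc 12.9-fold, Gzmb 5.96-fold, Klrg1 5.71-fold, Gzma 5.32-fold and perforin 3.1-fold. That is 4 of 41 members higher in CON against 1.04% of 20615 genes, and 7 higher in GEN against 2.51% of 20395 genes. In each exposure 0 members were lower, against 1.34% of genes in CON and 2.41% in GEN. The members' median difference was 1.08 in CON and 0.67 in GEN, beside 0.02 and 0.01 over all genes. In CON 20 members lay higher at GD3.5 with no overlap of arrays, against 12% of all genes, and 0 lay lower, against 11%. In GEN this held for 16 members, against 15.3%, and 2 lay lower, against 13.1%.

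Gzma read -2.14, -2.53 and -1.78 in CON at GD1.5 and -0.07, 0.87 and 0.72 at GD3.5 (log2 difference 2.66, SE 0.58, adjusted p = 0.0127). In GEN it read -0.73, -0.82, -1.98 and -2.69 at GD1.5, then 1.19, 0.58 and 0.79 at GD3.5 (log2 difference 2.41, SE 0.54, adjusted p = 0.00943). Neither pair of days overlapped.

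Klrg1, an inhibitory receptor for cadherins carried by mature NK cells, rose by nearly the same step in each exposure. Its CON arrays read -3.41, -3.21 and -4.16 at GD1.5 and -0.70, -1.84 and -1.65 at GD3.5 (log2 difference 2.20, SE 0.49, adjusted p = 0.0159). Its GEN arrays read -2.80, -2.62, -3.96 and -4.06 at GD1.5, then -0.98, -0.86 and -0.70 at GD3.5 (log2 difference 2.51, SE 0.46, adjusted p = 0.00181). It rose again in CON from GD4.5 (-1.57, -2.05, -1.52 and -1.42) to GD5.5 (-0.03, -0.57, -0.32 and 0.09), with no overlap (log2 difference 1.43, SE 0.43, adjusted p = 0.0135). In GEN at these days it read -2.49, -0.61, -0.06 and -1.90 at GD4.5, then 0.05, 0.40, -0.39 and -0.89 at GD5.5, a difference of 1.06 with an adjusted p of 0.0764.

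Ncr1, the activating receptor that marks the lineage, read -2.64, -2.97 and -2.31 in CON at GD1.5 and -1.26, -1.30 and -0.89 at GD3.5 (log2 difference 1.49, SE 0.38, adjusted p = 0.0343). In GEN it read -2.22, -2.59, -3.31 and -2.58 at GD1.5, then -1.29, -1.89 and -1.52 at GD3.5, and its difference of 1.11 did not pass (adjusted p = 0.0702). The days did not overlap in either exposure. Later it read -1.18, -2.01, -1.77 and -0.62 at GD4.5, then -1.5, -2.51, -1.71 and -1.44 at GD5.5 in CON and -2.07, -1.17, -1.27 and -1.44 at GD4.5, then -1.0, -1.57, -1.20 and -2.43 at GD5.5 in GEN, with differences of -0.39 and -0.06 and overlap in both. Neither of these later differences passed the test. The CON call of Ncr1 from GD1.5 to GD3.5 was lost in 6 of the 29 fits that left out 1 array.

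Of the granzymes of chromosome 14, Gzmb, Gzmc, Gzme and Gzmf passed the test in GEN, and Gzmd and Gzmg did not. Gzmc read -0.92, -1.68, -3.21 and -1.75 in GEN at GD1.5 and 2.38, 1.47 and 1.55 at GD3.5 (log2 difference 3.69, SE 0.67, adjusted p = 0.00169). In CON it read -2.09, -0.46 and -1.70 at GD1.5, then 0.17, -1.28 and -0.39 at GD3.5, a difference of 0.92 (adjusted p = 0.678). At GD3.5 all 3 GEN arrays lay above all 3 CON arrays.

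Gzmf read -4.30, -7.44, -9.42 and -5.56 in GEN at GD1.5 and -2.20, -2.52 and -2.22 at GD3.5 (log2 difference 4.36, SE 1.14, adjusted p = 0.0264). The CON arrays read -4.80, -2.10 and -5.63 at GD1.5, then -4.07, -5.28 and -3.68 at GD3.5 (difference -0.17, adjusted p = 0.989). Gzme read -5.36, -7.55, -9.67 and -6.90 at GD1.5, then -2.80, -3.48 and -3.19 at GD3.5 in GEN (log2 difference 4.21, SE 0.96, adjusted p = 0.011). In CON Gzme read -6.27, -4.07 and -7.35 at GD1.5, then -5.02, -7.09 and -4.62 at GD3.5. At GD1.5 both genes were well above background on only 2 of 4 GEN arrays, so their folds rest on near-background values there. For Gzmf the GEN difference was 2.06 and no longer passed under normexp background correction with the local background capped, and the call was also lost without any one of 5 of the 7 GEN arrays.

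Gzmb, which starts apoptosis in the target cell, rose in GEN (log2 difference 2.57, SE 0.54, adjusted p = 0.00587) and gave 2.10 in CON (adjusted p = 0.0539). Its group means, in order of the 4 days, were -1.32 ± 0.44, 0.77 ± 0.44, 0.87 ± 0.70 and 1.66 ± 0.31 in CON and -0.91 ± 0.90, 1.66 ± 0.09, 1.42 ± 1.33 and 2.08 ± 0.57 in GEN (SD, n = 3, 3, 4 and 4 in CON and 4, 3, 4 and 4 in GEN, as for all means below). Prf1 rose in GEN (log2 difference 1.63, SE 0.45, adjusted p = 0.0358) and gave 1.76 in CON (adjusted p = 0.0525). Its GEN call was lost in 6 of the 29 fits that left out 1 array. The levels of Prf1 were -1.59, -2.09 and -2.03 at GD1.5, then 0.13, -0.54 and -0.01 at GD3.5 in CON, and -1.28, -1.58, -2.50 and -2.15 at GD1.5, then 0.04, -0.49 and -0.30 at GD3.5 in GEN, with no overlap of days. Gzmk, another tryptase, averaged -7.53 ± 0.89, -5.62 ± 0.36, -5.58 ± 1.07 and -4.26 ± 1.23 in CON and -6.99 ± 1.46, -5.37 ± 0.53, -5.06 ± 0.56 and -3.67 ± 0.97 in GEN and passed no test. Gzmd and Gzmg gave 2.59 and 3.13 in GEN without passing (the second Gzmd probe gave 4.66), Gzmd going from -1.71, -2.90, -3.91 and -2.13 at GD1.5 to 0.23, -0.33 and -0.12 at GD3.5. Gzmg read -4.86, -9.09, -9.61 and -8.56 in GEN at GD1.5 and -4.07, -5.37 and -5.26 at GD3.5. In CON Gzmd averaged -2.13 ± 1.26, -1.69 ± 0.62, -1.76 ± 1.53 and 1.80 ± 0.74 over the 4 days. Gzmg averaged -5.15 ± 2.27, -5.87 ± 0.53, -5.79 ± 2.18 and -0.94 ± 1.20 in CON. Gzmm, a granzyme that cuts after methionine, ranged from -3.59 to -2.44 over all 29 arrays.

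Klre1, a partner chain of the Klri receptors, read -4.92, -5.45 and -4.23 in CON at GD1.5 and -2.84, -3.6 and -3.35 at GD3.5 (log2 difference 1.60, SE 0.41, adjusted p = 0.036). Its second probe, well above background on 13 arrays, gave -0.13 for the same step, so the 2 probes disagreed. Klre1 averaged -5.38 ± 0.43, -4.19 ± 0.15, -3.93 ± 0.27 and -3.59 ± 0.64 over the 4 days in GEN and -4.87 ± 0.61, -3.27 ± 0.39, -3.45 ± 0.84 and -3.31 ± 0.34 in CON.

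Whether the step from GD1.5 to GD3.5 differed between exposures was tested in the same way, and 0 of 41 members and 0% of 21063 genes were called, with 6 members and 498 genes at an unadjusted p under 0.05. The difference was 4.53 for Gzmf (1.09 to 7.98), 3.89 for Gzme (0.97 to 6.81), 3.85 for Gzmg (0.26 to 7.43) and 2.78 for Gzmc (0.74 to 4.81). These unadjusted 95% intervals lie above 0, while the adjusted p was 1 for Gzmf and 1 for Gzmc, so the step was not shown to be larger in GEN.

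The CON count for this interval depends on single arrays. It was 2 without GD1.5 CON replicate 1, 1 without GD1.5 CON replicate 2, 1 without GD3.5 CON replicate 1, 2 without GD3.5 CON replicate 2 and 0 without GD3.5 CON replicate 3, the array that lay alone on its slide. Only 1 slide held both days in CON, where the 4 called genes differed by 2.08 (Gzma), 2.08 (Klre1), 2.72 (Klrg1) and 1.37 (Ncr1), and with slide as a fixed block 0 were called. In GEN 3 slides held both days and all 7 called genes were higher at GD3.5 on each. The GEN count was 4 without GD3.5 GEN replicate 4.

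Genes of other lists also passed the test in this interval. Eomes, a transcription factor needed for NK cell maturation, rose in both exposures (log2 difference 1.56, SE 0.38, adjusted p = 0.0304 in CON and 1.30, SE 0.36, adjusted p = 0.0368 in GEN). Xcl1, a chemokine made by NK cells, rose in CON (1.22, SE 0.32, adjusted p = 0.0458). Only 1 of the 36 tested other NK and innate lymphoid genes passed in CON (list median 0.44). In GEN 0 of 35 rose and 2 fell, and 26 had a difference below 0 (list median -0.38). Of 18 adaptor and signalling genes 0 passed in either exposure, with medians of 0.19 in CON and -0.53 in GEN. Among all genes 1.04% rose in CON, and 2.51% rose and 2.41% fell in GEN. Cxcl14, a chemokine that attracts NK cells, fell in both (-2.36, SE 0.44, adjusted p = 0.00358 in CON and -1.72, SE 0.41, adjusted p = 0.0144 in GEN). In GEN Ctsc, which activates granzymes by trimming them, fell (-1.41, SE 0.34, adjusted p = 0.0174), with Lamp1 and Stx11 of the granule pathway.

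Markers of other cell types differed between these days too. The summed level of the neutrophil markers ranged from 118 to 174 in CON at GD1.5 and from 5.54 to 21.6 at GD3.5. In GEN it ranged from 128 to 267 and from 9.5 to 38.2. Of these markers 0 of the 5 tested in CON and 0 of 7 in GEN passed. The high sums rest on Ltf and S100a9, whose log2 levels reached 7.41 and 6.42, while no other gene of the list exceeded 2.94 (S100a8). All 8 macrophage and dendritic cell markers had differences below 0 in both exposures, with medians of -0.26 and -0.79, and 1 passed in GEN, Fcgr1. Of 13 T cell markers 11 had a difference above 0 in CON (median 0.40) and 4 in GEN (median -0.52), and 1 passed in GEN, Cd8b1. Of 6 mast cell markers 0 passed in CON (median -0.58) and 1 fell in GEN, Tpsab1 (median -1.65). Of 5 trophoblast and embryo markers 1 fell in CON, Tfap2c, and 0 passed in GEN. The part of these cell types in the members' rise was not tested.

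**Figure D3:**
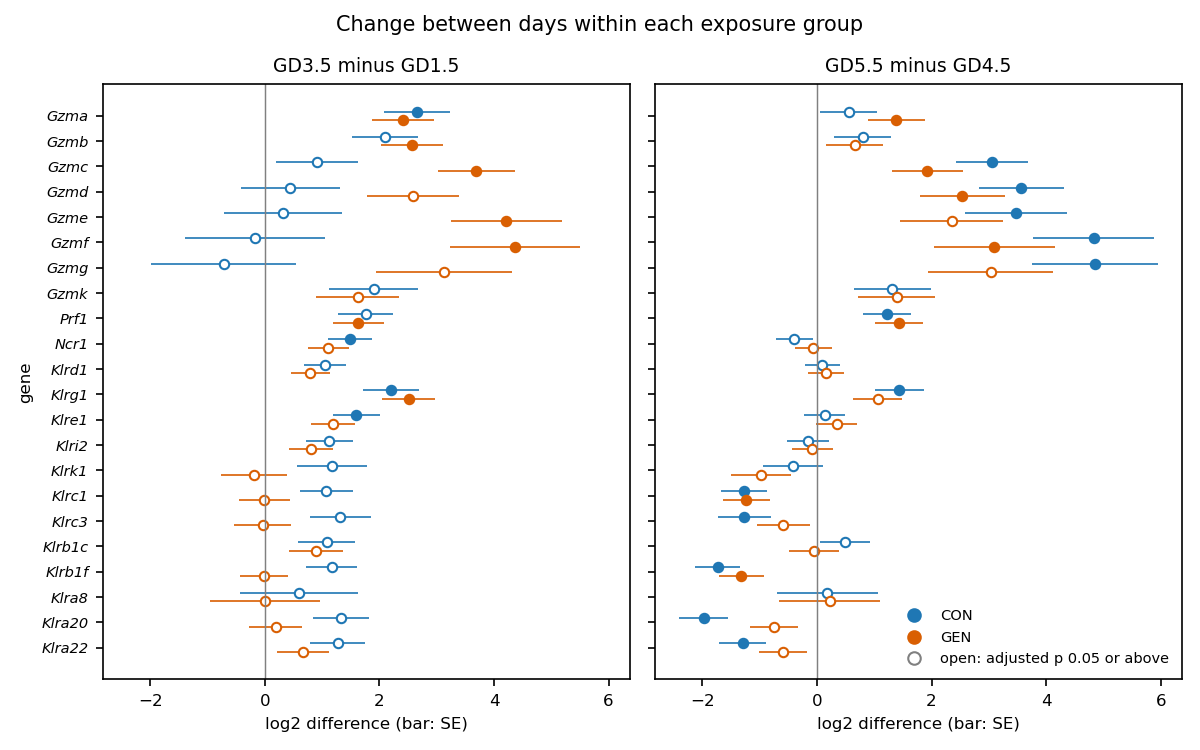
Log2 difference from GD1.5 to GD3.5 (left) and from GD4.5 to GD5.5 (right) for 22 granule and receptor genes, in CON and GEN, with bars for the SE. Filled points passed the adjusted p threshold of 0.05. Gzmc to Gzmg lie farthest to the right at GD5.5 minus GD4.5, while Klrb1f, Klrc1, Klra20 and Klra22 lie to the left of 0 in CON.

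The receptors that fell from GD4.5 to GD5.5 belonged to several families. Falls were no more frequent among members than among all genes. In CON 5 of 41 members were called lower, against 14.3% of genes, and in GEN 2 of 41, against 8.96%. Klra20 fell in CON (log2 difference -1.98, SE 0.43, adjusted p = 0.00134), reading -1.92, -3.87, -2.98 and -1.87 at GD4.5, then -4.90, -4.82, -4.60 and -4.23 at GD5.5 without overlap. In GEN it read -4.66, -3.21, -3.42 and -2.39 at GD4.5, then -3.79, -4.18, -3.55 and -5.15 at GD5.5 (difference -0.75, adjusted p = 0.21). At the earlier days Klra20 read -3.17, -4.24 and -3.6 at GD1.5, then -2.45, -2.29 and -2.27 at GD3.5 in CON and -3.31, -4.0, -4.06 and -3.61 at GD1.5, then -3.31, -3.71 and -3.63 at GD3.5 in GEN.

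Klrb1f, a lectin-like receptor of the NK1.1 family, fell in CON (log2 difference -1.73, SE 0.39, adjusted p = 0.00181) and in GEN (log2 difference -1.32, SE 0.39, adjusted p = 0.0198). It was well above background on only 2 of 4 CON and 1 of 4 GEN arrays at GD5.5. The levels in CON were -3.82, -3.62, -4.11 and -3.09 at GD4.5, then -5.95, -5.86, -4.83 and -4.93 at GD5.5. In GEN they were -4.66, -4.01, -5.06 and -3.23 at GD4.5, then -5.71, -6.22, -4.89 and -5.40 at GD5.5. The GEN difference was -0.27 under normexp with the local background capped and -0.62 with the mean over both probes, and neither passed. Over the 4 days Klrb1f averaged -5.31 ± 0.69, -4.14 ± 0.38, -3.66 ± 0.43 and -5.39 ± 0.59 in CON and -5.14 ± 0.49, -5.14 ± 0.42, -4.24 ± 0.80 and -5.56 ± 0.56 in GEN.

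Klrc1 (NKG2A), the inhibitory partner of Klrd1, fell in CON (log2 difference -1.27, SE 0.41, adjusted p = 0.0202) and in GEN (log2 difference -1.23, SE 0.41, adjusted p = 0.0342), and its second probe gave -1.66 and -1.51. In CON it read -2.64, -3.04, -3.63 and -1.33 at GD4.5, then -4.04, -3.81, -4.01 and -3.89 at GD5.5. In GEN it read -2.11, -1.98, -3.57 and -1.42 at GD4.5, then -3.14, -3.85, -2.89 and -4.09 at GD5.5. Replicate 4 was the highest of its GD4.5 group in both exposures, and in CON the call was lost without it (-0.83). In GEN the call was lost without any one of 6 of the 8 arrays compared, where the difference was -1.35 to -0.94. At the earlier days Klrc1 read -3.43, -3.71 and -3.45 at GD1.5, then -2.80, -2.21 and -2.36 at GD3.5 in CON and -2.95, -3.01, -3.93 and -3.38 at GD1.5, then -2.98, -3.47 and -3.52 at GD3.5 in GEN.

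The probe named for Klrc3 also fell in CON (log2 difference -1.27, SE 0.46, adjusted p = 0.0399). It was well above background on 1 of 4 CON arrays at GD5.5, and its call was lost without GD4.5 CON replicate 1 or 4 or without any one of the 4 CON arrays of GD5.5, with differences of -1.36 to -0.80. Its means over the 4 days were -5.15 ± 0.21, -3.83 ± 0.33, -4.55 ± 1.13 and -5.82 ± 0.24 in CON and -4.84 ± 0.50, -4.88 ± 0.34, -4.04 ± 1.00 and -4.63 ± 0.64 in GEN. Klra22 fell in CON (log2 difference -1.30, SE 0.41, adjusted p = 0.0205), and its call was lost without GD4.5 CON replicate 1 or 4 or GD5.5 CON replicate 1 or 2, with differences of -1.16 to -1.08. Its means were -2.67 ± 0.62, -1.39 ± 0.10, -1.61 ± 0.67 and -2.90 ± 0.74 in CON and -2.99 ± 0.42, -2.32 ± 0.20, -2.53 ± 0.76 and -3.12 ± 0.74 in GEN.

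Klrd1, the common partner chain, averaged -0.47 ± 0.37, 0.58 ± 0.27, -0.00 ± 0.71 and 0.09 ± 0.24 in CON and -0.75 ± 0.22, 0.04 ± 0.23, 0.05 ± 0.46 and 0.20 ± 0.66 in GEN over the 4 days and passed no test between days. Klrb1c (NK1.1) averaged -1.49 ± 0.19, -0.40 ± 0.25, -1.72 ± 1.33 and -1.23 ± 0.62 in CON and -1.80 ± 0.27, -0.91 ± 0.17, -0.80 ± 0.50 and -0.85 ± 0.50 in GEN. CON replicate 2 of GD4.5 was low in Klrb1c at -3.57, against -1.63 to -0.43 in the other 3. Klrk1 (NKG2D) averaged -5.45 ± 1.22, -4.27 ± 0.49, -4.53 ± 0.81 and -4.95 ± 0.60 in CON and -5.25 ± 0.61, -5.44 ± 0.22, -5.37 ± 1.00 and -6.34 ± 0.77 in GEN, and was well above background on 22 arrays.

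The genes that work with the receptors were counted in this interval beside all genes tested, of which 16.3% rose and 14.3% fell in CON and 12.7% rose and 8.96% fell in GEN. Of 18 tested adaptor and signalling genes 7 fell and 0 rose, among them Hcst (DAP10), the adaptor of NKG2D (-1.39, SE 0.35, adjusted p = 0.0041), and Tyrobp (DAP12), the adaptor of the activating receptors (-1.0, SE 0.30, adjusted p = 0.0134). In GEN 0 of 18 passed. Of 35 other NK and innate lymphoid genes 14 fell in CON and 5 in GEN, among them Il7r (-2.47, SE 0.53, adjusted p = 0.00125 in CON), the chemokine receptor Cxcr6 (-2.25, SE 0.62, adjusted p = 0.00817) and the chemokine Ccl5 (-2.66, SE 0.76, adjusted p = 0.0108). Macrophages carry Tyrobp too, and 7 of 8 macrophage and dendritic cell markers fell in CON, C1qa among them (-1.78, SE 0.36, adjusted p = 0.000709), and 0 in GEN. The summed level of those 8 markers ranged from 26.9 to 52.1 in CON at GD4.5 and from 8.88 to 17.9 at GD5.5, and its part in the receptor and adaptor results was not tested.

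Of 19 tested genes of the granule pathway and of granzyme control, 3 rose and 3 fell in CON, and 3 rose and 4 fell in GEN, beside the same shares of all genes. The members that rose most were inhibitors: Serpinb6b (4.46, SE 0.37, adjusted p = 4.59e-08 in CON and 3.75, SE 0.37, adjusted p = 2.91e-06 in GEN) and Serpinb9, an inhibitor of granzyme B (2.19, SE 0.19, adjusted p = 6.65e-08 in CON and 1.69, SE 0.19, adjusted p = 1.71e-05 in GEN). Of 21 receptor ligands 3 rose and 3 fell in CON, and 4 rose and 6 fell in GEN. Clec2d, the ligand of an inhibitory Klrb1 receptor, fell in CON (-1.79, SE 0.23, adjusted p = 8.96e-06), Ulbp1, a ligand of NKG2D, rose in CON (1.33, SE 0.32, adjusted p = 0.00291), and another NKG2D ligand, Raet1e, rose in GEN (1.98, SE 0.69, adjusted p = 0.0437). Of the cytokines and transcription factors of NK cells 1 rose and 10 of 24 fell in CON, and 1 rose and 5 of 25 fell in GEN. Gata3 rose in both (3.53, SE 0.28, adjusted p = 2e-08 in CON), and it is also a trophoblast gene. Il18, which activates NK cells, fell in both (-1.16, SE 0.21, adjusted p = 0.00027 in CON). Cxcl14 rose in both (2.48, SE 0.38, adjusted p = 5.19e-05 in CON and 1.41, SE 0.38, adjusted p = 0.012 in GEN).

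Between exposures, no member was called on any single day. Of all genes, 20 (0.0975%) were called at GD1.5, 21 (0.103%) at GD3.5, 25 (0.116%) at GD4.5 and 0 (0%) at GD5.5. Of the 41 members, 6, 16, 13 and 6 had an unadjusted p under 0.05 on these days, and so did 1258 of 20504, 1130 of 20401, 2062 of 21620 and 1125 of 20828 genes. The 4 daily comparisons have no array in common, and each shares its arrays with the comparisons between days. The members' median GEN minus CON difference was -0.28, -0.87, -0.29 and 0.11, beside -0.01, -0.03, -0.04 and -0.01 over all genes.

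The medians of the Klra genes and the granzymes differed in sign from GD3.5 on, while at GD1.5 both were below 0. In order of the 4 days the Klra genes had median differences of -0.62, -1.45, -0.96 and -0.36, and 16, 18, 18 and 12 of 18 were below 0. The granzymes had medians of -0.48, 0.97, 1.64 and 0.63, and 3, 8, 8 and 8 of 9 were above 0. The 4 Klrb genes gave 0.05, -0.50, 0.26 and 0.28 and the 8 other Klr genes 0.05, -0.90, -0.08 and 0.05. The Klra and granzyme counts were the same under quantile normalization and scaling to the 50th percentile. Under normexp background correction, uncapped, the number of Klra genes below 0 at GD5.5 was 2, and 6 granzymes were above 0 at GD3.5. At GD3.5 the arrays of 22 members lay lower in GEN with no overlap, 13 of them Klra, against 12.4% of all genes, and those of 5 granzymes lay higher, against 7.87%. At GD1.5 there were 2 lower (4.81% of genes) and 0 higher (3.52%), at GD4.5 2 lower (2.88%) and 0 higher (1.27%), and at GD5.5 2 lower (0.84%) and 3 higher (0.883%).

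**Figure D4:**
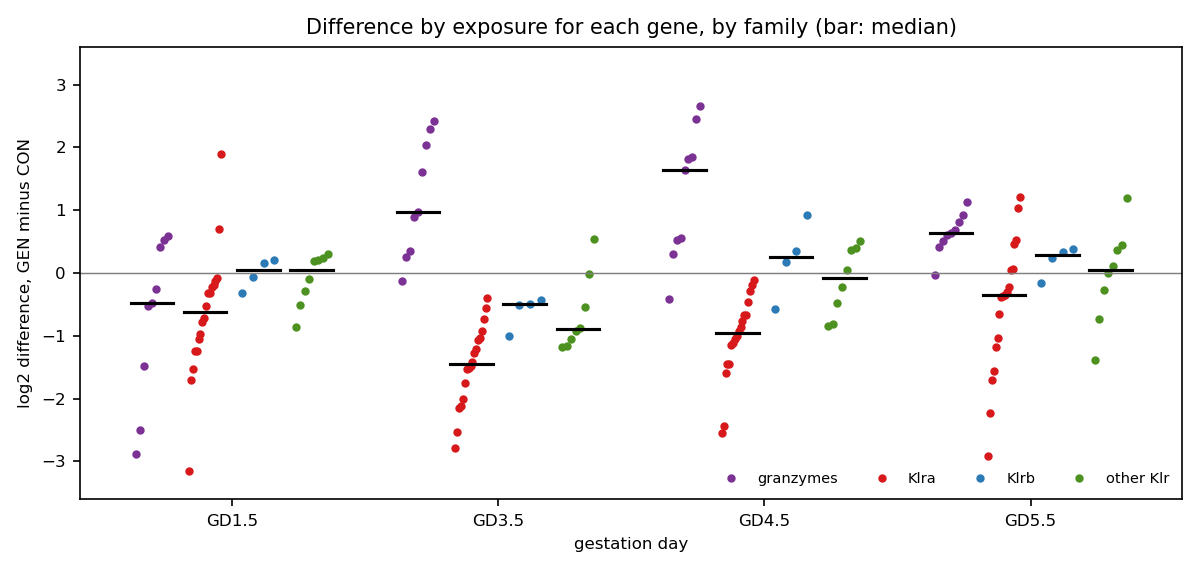
GEN minus CON log2 difference of each tested gene on each gestation day, by family, with a bar at the family's median (9 granzymes, 18 Klra, 4 Klrb and 8 other Klr genes). Klra genes lie below 0 at GD3.5 and GD4.5, and 8 of 9 granzymes lie above 0 from GD3.5 on. No single point passed the adjusted p threshold.

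Averaged over the 4 days, 3 receptors were lower in GEN and 0 members were higher. Klra6 (Ly49F) was 6.77-fold lower (log2 difference -2.76, SE 0.45, adjusted p = 0.00155), Klra5 (Ly49E) 3.39-fold lower (log2 difference -1.76, SE 0.29, adjusted p = 0.00211) and Klri2 1.86-fold lower (log2 difference -0.90, SE 0.19, adjusted p = 0.0168). That is 3 of 41 members against 0.698% of 23338 genes called lower, and 0 against 0.343% called higher. The Klra6 probe also lists Klra5 and Klra19, so the calls of Klra6 and Klra5 may not stand for separate genes. The Klra gene content of these outbred animals was not known, and its part in these differences was not tested. Of the 18 Klra genes 16 had a mean difference below 0 and 2 above. The highest was Klra2 (0.52, and 0.71 on its second probe). The members' median was -0.17, beside -0.02 over all genes.

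Klra6, an inhibitory Ly49 receptor, separated the exposures on each day. At GD1.5 it read -5.75, -5.72 and -0.48 in CON and -7.02, -7.05, -7.14 and -7.31 in GEN, and at GD3.5 -1.32, -4.63 and -5.22 in CON and -6.23, -6.34 and -6.17 in GEN. All CON arrays lay above all GEN arrays, and CON replicate 3 of GD1.5 and CON replicate 1 of GD3.5 were over 3 log2 units above the rest of their group. At GD4.5 it read -3.22, -1.94, -3.64 and -3.32 in CON and -5.79, -4.82, -5.46 and -5.81 in GEN, and at GD5.5 -2.72, -2.16, -1.39 and -3.33 in CON and -5.80, -5.65, -5.03 and -4.79 in GEN. The daily differences were -3.15, -2.52, -2.44 and -2.92, with adjusted p-values of 0.32, 0.656, 0.303 and 0.517. On slides shared by CON and GEN of the same day they ranged over -4.04 to -1.30, -4.92 to -1.54, -2.58 to -1.18 and -3.50 to -1.46, below 0 on all 10 day and slide pairs. At GD1.5 only 1 of 4 GEN arrays was well above background for Klra6, so that fold depends on near-background values.

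Klra5, a Ly49 receptor found on fetal NK cells, read -3.13, -5.39, -3.05 and -3.56 in CON and -7.40, -4.57, -7.25 and -6.09 in GEN at GD4.5, where 1 of 4 GEN arrays was well above background. At GD5.5 it read -3.08, -3.32, -3.62 and -3.23 in CON and -5.12, -5.02, -5.28 and -6.74 in GEN. The exposures did not overlap at GD1.5 or GD5.5, and at GD4.5 they overlapped through CON replicate 2 and GEN replicate 2. At GD1.5 it read -6.08, -5.47 and -5.03 in CON and -6.59, -7.40, -6.78 and -6.31 in GEN, and at GD3.5 -3.97, -5.57 and -5.28 in CON and -6.41, -6.00 and -5.49 in GEN. The daily differences were -1.24, -1.03, -2.55 and -2.23 (adjusted p = 0.814, 1, 0.0598 and 0.291). Its second probe, well above background on 14 arrays, gave a mean difference of -2.43. Within slides the difference ranged over -1.52 to -1.32, -2.44 to 0.08, -3.69 to -1.52 and -3.51 to -1.70, and was above 0 on 1 slide, at GD3.5.

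Klri2, which pairs with Klre1, read -5.41, -5.71 and -4.46 in CON and -5.15, -6.51, -6.24 and -6.29 in GEN at GD1.5, and -3.54, -4.46 and -4.20 in CON and -5.04, -5.15 and -5.53 in GEN at GD3.5. At GD4.5 it read -4.29, -5.27, -4.51 and -3.56 in CON and -5.41, -5.08, -5.57 and -4.80 in GEN, and at GD5.5 -4.68, -4.64, -4.47 and -4.45 in CON and -5.12, -5.55, -4.46 and -6.05 in GEN. The exposures overlapped on all days except GD3.5. The daily differences were -0.86, -1.18, -0.81 and -0.74. Its second probe gave -0.64 over the 4 days, and the call was lost under quantile normalization, with the mean over both probes and with slide as a fixed block (-0.91 to -0.77).

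The 3 calls held in all 29 fits that left out 1 array, with differences of -2.98 to -2.32 for Klra6, -1.91 to -1.64 for Klra5 and -0.97 to -0.80 for Klri2. All 3 calls were lost under normexp background correction without a cap on the local background, where the differences were -1.10 for Klra6 (adjusted p = 0.115), -0.40 for Klra5 (adjusted p = 0.469) and -0.14 for Klri2 (adjusted p = 0.732). Same-numbered CON and GEN arrays deviated together at GD5.5, where replicates 1, 2 and 4 of both exposures also shared slides, so that number and slide cannot be told apart for these pairs. With the replicate number as a block within each day Klra6 still passed (log2 difference -2.87, adjusted p = 0.0281). Under that block Klra5 (-1.94, adjusted p = 0.0674) and Klri2 (-0.89, adjusted p = 0.0798) did not pass, and Klra12 did (-0.89, adjusted p = 0.0486).

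**Figure D5:**
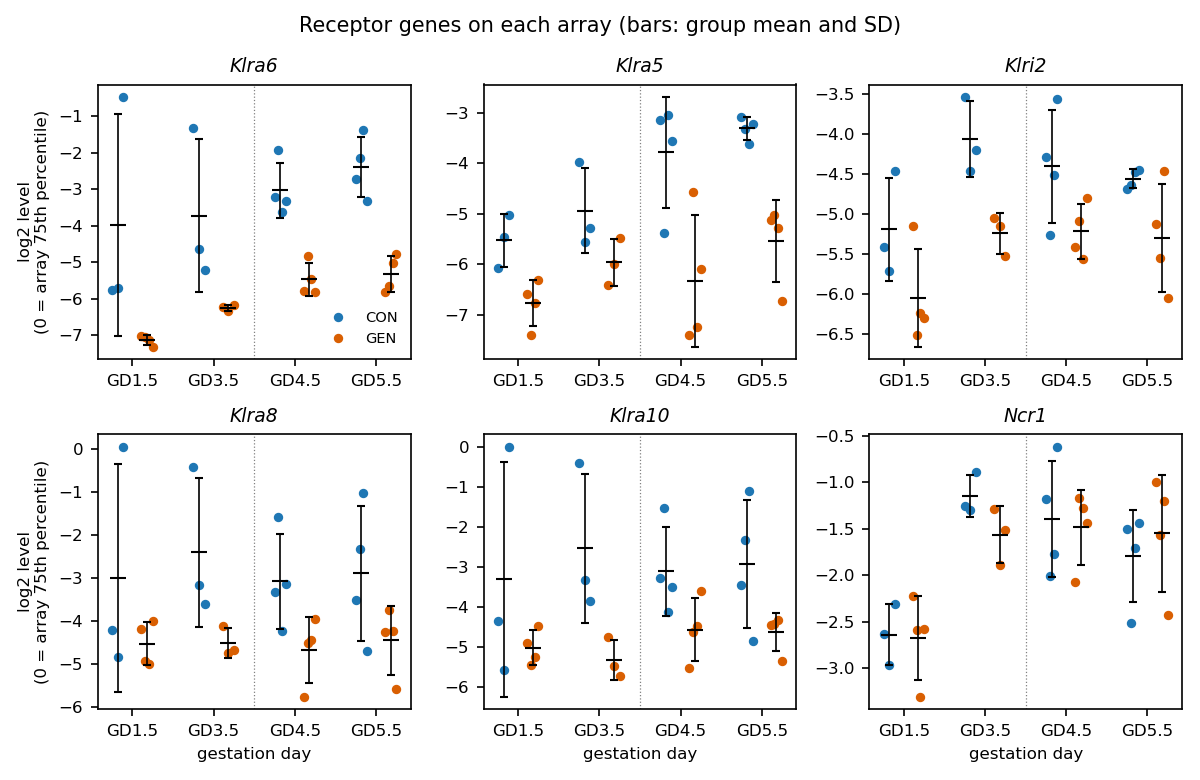
Log2 level of Klra6, Klra5, Klri2, Klra8, Klra10 and Ncr1 on each array by gestation day, with points for single arrays in CON and GEN and bars for the group mean and SD (3 or 4 arrays). For Klra6 all CON arrays lie above all GEN arrays on each day. For Klra8 and Klra10 single CON arrays, such as replicate 3 at GD1.5 and replicate 1 at GD3.5, lie far above their group, and for Ncr1 the exposures overlap.

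Single CON arrays carried high values of several Klra genes together. On GD1.5 CON replicate 3, 16 of 18 Klra genes had the highest value of the day, and on GD3.5 CON replicate 1, 15 of 18. Klra8 (Ly49H), an activating receptor known for recognising cytomegalovirus, read -4.21, -4.83 and 0.05 in CON and -4.20, -4.93, -4.99 and -4.0 in GEN at GD1.5. At GD3.5 it read -0.41, -3.17 and -3.61 in CON and -4.11, -4.75 and -4.69 in GEN. Klra8 averaged -3.0 ± 2.66, -2.40 ± 1.73, -3.08 ± 1.10 and -2.89 ± 1.58 in CON and -4.53 ± 0.50, -4.52 ± 0.35, -4.67 ± 0.77 and -4.45 ± 0.80 in GEN over the 4 days, with a mean difference of -1.70 (adjusted p = 0.0896). Klra10 read -4.35, -5.57 and -0.01 in CON at GD1.5 and -0.41, -3.34 and -3.85 at GD3.5. On the later CON days it read -3.29, -1.53, -4.12 and -3.49, then -3.46, -2.34, -1.10 and -4.84. In GEN it averaged -5.02 ± 0.43, -5.32 ± 0.50, -4.56 ± 0.78 and -4.64 ± 0.48, and its mean difference was -1.91 (adjusted p = 0.0612). The CON group thus held both arrays at the level of GEN and arrays far above it. The mean differences of Klra3 and Klra21 were -1.43 and -1.27 (adjusted p = 0.0816 and 0.0556). Klra17 averaged -4.77 ± 1.76, -4.55 ± 1.17, -4.16 ± 0.91 and -5.82 ± 1.00 in CON and -4.08 ± 0.59, -6.08 ± 0.85, -5.60 ± 1.01 and -5.75 ± 0.60 in GEN. Ncr1 read -2.31 on GD1.5 CON replicate 3 and -1.26 on GD3.5 CON replicate 1.

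The mean GEN minus CON difference of Ncr1 was -0.08, with a 95% interval of -0.43 to 0.28, and that of Prf1 was 0.11 (-0.34 to 0.57). For Gzmc it was 0.99 (0.31 to 1.68, adjusted p = 0.199). Its largest daily difference was at GD3.5 (log2 difference 2.30, SE 0.72, adjusted p = 0.354), where within 2 slides it was 2.21 to 2.83. At GD4.5 Gzmf gave 2.66 (adjusted p = 0.387), and within 3 slides it ranged from -2.02 to 6.39. At GD1.5 Gzmg and Gzmf gave -2.88 and -2.50 (adjusted p = 0.637 and 0.753), with CON replicate 2 the highest of that day in 5 of 9 granzymes. The fold of Gzmg there rests on 1 of 4 GEN arrays well above background.

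Mast cell markers moved with exposure in the same direction as Klra6, Klra5 and Klri2. Over the mean of the 4 days 5 of 7 were lower in GEN and 0 higher, with a median of -1.61, led by Tpsab1 (-2.34, SE 0.38, adjusted p = 0.00155), Mcpt4 (-1.99, SE 0.43, adjusted p = 0.0194) and Tpsb2 (-1.61, SE 0.29, adjusted p = 0.00361). On single days 2 of 6 were called, Tpsab1 and Tpsb2 at GD3.5. Their summed level was 6.10 to 8.44 in CON and 1.12 to 2.93 in GEN at GD1.5, 3.26 to 9.30 and 0.864 to 1.13 at GD3.5, 2.78 to 9.38 and 0.601 to 3.59 at GD4.5, and 0.942 to 2.54 and 0.783 to 2.68 at GD5.5. The ranges did not overlap at GD1.5 and GD3.5, and overlapped at GD4.5 and GD5.5, where Klra6 did not. Kit, a receptor of mast cells and of some NK precursors, was lower over the 4 days (-0.60, SE 0.14, adjusted p = 0.0322). The part of mast cells in the 3 receptor results was not tested. For T cell, leukocyte, neutrophil and macrophage markers 0 were called between exposures over the mean of the 4 days or on any day. Nor was any tested receptor ligand, adaptor, granule pathway gene, cytokine, transcription factor or chemokine of the lists called between exposures, apart from Kit.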

How the data were processed

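Uterine RNA was measured on 29 single-colour Agilent arrays. The authors' scanner files, made with Agilent Feature Extraction 9.5 per the submitters' processing notes, hold each spot's processed intensity, background-subtracted and detrended per the file headers. The log2 values used here were computed from these deposited intensities: log2 of the processed intensity minus the log2 75th percentile of the non-control spots of that array. Outlier spots were left out, spots of a probe were averaged, and the brightest probe stood for a gene. Probes were named through RefSeq's table where their accession or name matched (22951 probes by accession, 6653 by symbol, 3107 by synonym), and 8463 kept the file's name. Probe positions are on mouse build mm7. On slides 1 to 4 71.3 to 78.1% of probes were well above background and on slides 5 to 8 65.5 to 80.9%, with 75th percentiles of 1490 to 1840 and 734 to 995. The number of arrays limits the precision.

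The 8 groups of day and exposure entered 1 limma fit (limma 3.58.1 and statmod 1.5.0 in R 4.3.3). Each of 11 comparisons was tested with the moderated test, with p-values adjusted (Benjamini-Hochberg) over all genes whose probe stood well above background on 3 or more of the arrays compared, and calls are adjusted p-values under 0.05. Differences are GEN minus CON or later minus earlier day, and intervals are at 95%. The procedure was tested on simulated data. The members and the 14 other gene lists were chosen with earlier results of these data known. Values are given for each member called in any comparison, for a list of core members, and for the 3 members of largest difference in each comparison. Of each other list up to 3 called genes are named, otherwise the 2 of largest difference, and other genes named were chosen after their values were seen.

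CON and GEN share replicate numbers, which the labels do not explain. Deviations from the group means of same-numbered arrays correlated at 0.21 to 0.51 at GD5.5, where every pair was above 0.1, and at -0.24 to 0.22 on the other days. The numbers may therefore pair arrays at GD5.5, but the main fit did not use them, and they entered only as blocks in alternative fits. CON and GEN replicates 1, 2 and 4 of that day also shared slides 6, 7 and 8, so number and slide cannot be told apart for these pairs. Alternatives were other background corrections and scalings, filters, probe rules, blocks for slide and replicate number, and leaving out each array. The capped background correction and the block within each day were chosen after seeing the data.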

Additional observations from a re-analysis of the deposited data

Results flagged for a closer look

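For each of the 26 named members, the 5 groups of 4 arrays were examined for a single array far from the other 3. This gave 130 sets of values from the same arrays, each judged by Dixon's ratio against the critical value of 0.829. This was met 4 times in 130, fewer than the 1 in 20 that chance alone gives, so these values need not mark unusual arrays. Gzme, a decidual granzyme, read -0.16 on GD5.5 CON replicate 3, against -1.41 to -1.25 on the other 3. Gzmf read -1.16 on GD4.5 CON replicate 1, against -5.80 to -5.08. The inhibitory receptor Klra5 read -6.74 on GD5.5 GEN replicate 4, against -5.28 to -5.02. Klra10 read -5.35 on the same array, against -4.45 to -4.33.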

How the results depend on the processing

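For 54 gene results, 562 of 635 values under another setting kept their direction and their side of the threshold, 55 lost the call, 14 gained it and 4 reversed. With 1 array left out, 1460 of 1566 kept both, 90 lost the call, 16 gained it and 0 reversed. All 4 reversals came under uncapped normexp background correction: Klra10 at GD5.5 (0.15), Klra5 at GD5.5 (0.42), and in GEN from GD4.5 to GD5.5 Klrb1f (0.98) and Klrc1 (0.027). That correction left the dimmest signals (5th percentile) at 154 to 540 on 5 arrays against 59 to 66 on most others, 3 of the 5 being GD5.5 GEN. It called 15 members at GD5.5, 0 over the mean of the 4 days and 23 in GEN from GD4.5 to GD5.5. With the local background capped these counts were 0, 4 and 9, and 8 members were called in CON from GD1.5 to GD3.5.

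Over the mean of the 4 days 1 member was called among genes well above background on all 29 arrays. Klra6 and Klra5 (24 arrays each) and Klri2 (28 arrays) did not enter that fit, so it cannot bear on their calls. With a variance trend and robust fit 5 members were called. At GD4.5 1 member, Klra5, was called with the mean over probes, with slide as a random block and with the variance trend. With only the arrays of the days compared, 13 members were called in CON and 13 in GEN from GD1.5 to GD3.5, and 0 in GEN from GD4.5 to GD5.5. The filter on all 29 arrays, which left out Gzme, Gzmf, Gzmg, Klrb1f and Klrc3, gave 7 for the later days in CON. Slide as a fixed block gave 0 in CON from GD1.5 to GD3.5 and 0 in GEN from GD4.5 to GD5.5. With 1 array left out the counts were 0 to 1 at GD4.5, 3 to 7 over the mean of the 4 days, 0 to 6 in CON and 4 to 9 in GEN from GD1.5 to GD3.5, and 0 to 10 in GEN from GD4.5 to GD5.5. The mean over the 4 days gave 7 without GD1.5 CON replicate 2, 6 without GD4.5 GEN replicate 4 and 5 without GD5.5 CON replicate 4. The cause was not tested.

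With the replicate number as a block over all days 4 members were called over the mean of the 4 days, 4 in CON and 7 in GEN from GD1.5 to GD3.5, 12 and 7 in CON and GEN between the later days, and 0 on each single day. The block within each day called 2 over the mean of the 4 days. From GD4.5 to GD5.5, 50th percentile scaling moved the CON median of all genes by 0.116, with 62.6% of calls higher against 53.2%. In GEN the share was 58.7%, or 70.0% under capped normexp, 49.2% under quantile normalization and 50.6% under 50th percentile scaling. Signals near background limit Gzme, Gzmf and Gzmg at GD1.5 in GEN, and Klra5 and Klra6 in GEN.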
